A study of Mus musculus with 12 samples.

Results

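Gm5538, Sval2, Lrp1b, Faim3, Slc45a1, Jakmip3, Moxd1 and Rgs20 are 8 protein-coding genes that were chosen by their pattern in the present counts, near absence in wild-type (Wt) mouse islets and presence in Tg7 islets, which overexpress miR-7, at one or both ages. Rgs20 at 12w and Moxd1 in 2 of the 3 Wt libraries at 2w had more Wt counts than that description allows. Because the genes were chosen on it, their difference between Tg7 and Wt is described here without a test. They are 8 of 37991 genes in the count table. All 8 passed the filter on low counts, which kept 15961 genes, and 7 of them, all but Rgs20, met it through the Tg7 libraries alone.

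The libraries came from whole pancreatic islets of male C57BL/6 mice, measured by bulk RNA-seq. Tg7 mice carry a transgene that overexpresses miR-7a2 specifically in β-cells, and Wt mice were their littermates without it. Islets were taken at 2w, when Tg7 mice still had normal glycaemia, and at 12w, when they were diabetic. Each of the 4 groups, Wt 2w, Tg7 2w, Wt 12w and Tg7 12w, had 3 libraries, and each library pooled islets from several animals, so values describe pools and not single mice. The Tg7 libraries all come from 1 transgenic line, and the islets held every islet cell type, so fewer cells of a type and less RNA per cell cannot be told apart.

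Library totals ran from 11610697 to 17515758 counts. The hairpin gene Mir7-2 had between 0 and 13 counts in all 12 libraries, which is no check of the transgene because these libraries of long RNA do not capture the mature miRNA. The 10 β-cell markers listed were abundant in every library. Their summed level was 111100 to 180800 counts per 1000000 scaled counts (CPM) in Wt 2w and 27690 to 52780 in Tg7 2w. At 12w it was 199100 to 482600 in Wt and 100500 to 105800 in Tg7. At each age 8 of the 10 were lower in Tg7, beside 4.55% of all tested genes at 2w and 11.2% at 12w. One library stood apart for lymphocyte markers. Tg7 2w replicate 1 held 47 counts of the B-cell gene Ms4a1, against 0 in the other Tg7 2w libraries and 0 to 4 in the rest, and 129 counts of the T-cell gene Cd4, against 0 to 16 elsewhere. Results of the 8 genes that lean on this library are given with and without it.

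MicroRNAs lower the mRNAs that pair with their seed, and miR-7 is one of the most abundant miRNAs of endocrine cells, where it is known to restrain genes of β-cell function and growth. None of the 8 genes is part of the hormone-making programme of islets. Gm5538 encodes a relative of arylacetamide deacetylase, a lipid-handling esterase, and Sval2 a small secreted relative of prolactin-induced protein. Lrp1b, an endocytic receptor of the LDL receptor family, and Faim3, the Fc receptor for IgM on B lymphocytes, are receptors. Slc45a1 is a proton-coupled sugar transporter known from brain. Jakmip3 belongs to a family of coiled-coil proteins that bind Janus kinases and microtubules in neural and endocrine cells. Moxd1 is a relative of dopamine β-hydroxylase that sits in the endoplasmic reticulum, and Rgs20 shortens signalling through inhibitory G proteins.

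The mature miR-7a-5p sequence (RefSeq) is shown because a match to its seed, bases 2 to 8 in capitals, was searched for in the 8 genes.
miR-7a-5p: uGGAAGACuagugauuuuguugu
The match to this seed, GTCTTCC, was searched in the longest annotated 3′ untranslated region of each gene. Sval2 and Jakmip3 held 1 match each and the other 6 genes held none. Shorter matches to the seed were not searched. Of 20007 genes with an annotated 3′ untranslated region, 11.2% held at least 1 match.

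RefSeq promoters (build GRCm38.p6) were at hand for Gm5538, Sval2, Faim3, Jakmip3 and Moxd1. Those of Gm5538, Jakmip3 and Moxd1 are printed, 250 bases up to the start on the plus strand, because these 3 genes had the most counts in Tg7 12w among the 5. Capitals mark the motif matches described after them.
Gm5538, chr3:59729536-59729785: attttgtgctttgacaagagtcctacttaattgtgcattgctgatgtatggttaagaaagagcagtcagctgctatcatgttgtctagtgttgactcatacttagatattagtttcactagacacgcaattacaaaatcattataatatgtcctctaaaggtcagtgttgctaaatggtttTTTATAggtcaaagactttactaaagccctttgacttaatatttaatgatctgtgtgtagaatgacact
Jakmip3, chr7:138940480-138940729: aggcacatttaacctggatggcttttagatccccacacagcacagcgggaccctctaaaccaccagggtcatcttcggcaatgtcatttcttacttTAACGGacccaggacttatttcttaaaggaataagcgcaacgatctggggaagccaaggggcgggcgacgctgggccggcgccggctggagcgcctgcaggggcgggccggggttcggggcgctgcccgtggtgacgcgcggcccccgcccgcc
Moxd1, chr10:24223267-24223516: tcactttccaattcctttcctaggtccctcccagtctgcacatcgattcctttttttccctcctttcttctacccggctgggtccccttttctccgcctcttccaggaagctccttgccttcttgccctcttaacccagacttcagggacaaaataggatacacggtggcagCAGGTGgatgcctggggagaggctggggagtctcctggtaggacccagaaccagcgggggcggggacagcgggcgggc
The motifs were searched on both strands of the 300 bases around each start: an E-box (CAGGTG), an Ovol site (CCGTTA), a homeodomain core (TAATTA) and a TATA box (TATAAA). Gm5538 held a TATA box 69 bases before the start, read on the other strand as TTTATA. Jakmip3 held an Ovol site 154 bases before the start, read as TAACGG, and Moxd1 held an E-box 78 bases before it. Faim3 held an E-box 36 bases after its start, and Sval2 held none of the motifs. No match overlapped another. Among 32851 promoters of the same length, 20.2% held the E-box, 2.8% the Ovol site, 5.3% the homeodomain core and 13.6% the TATA box. The 5 promoters had no common base composition. GC content was 33.6% for Gm5538, 40.8% for Sval2, 46.4% for Faim3, 58.4% for Moxd1 and 63.2% for Jakmip3, beside a median of 52.4% over all promoters.

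**Figure D1:**
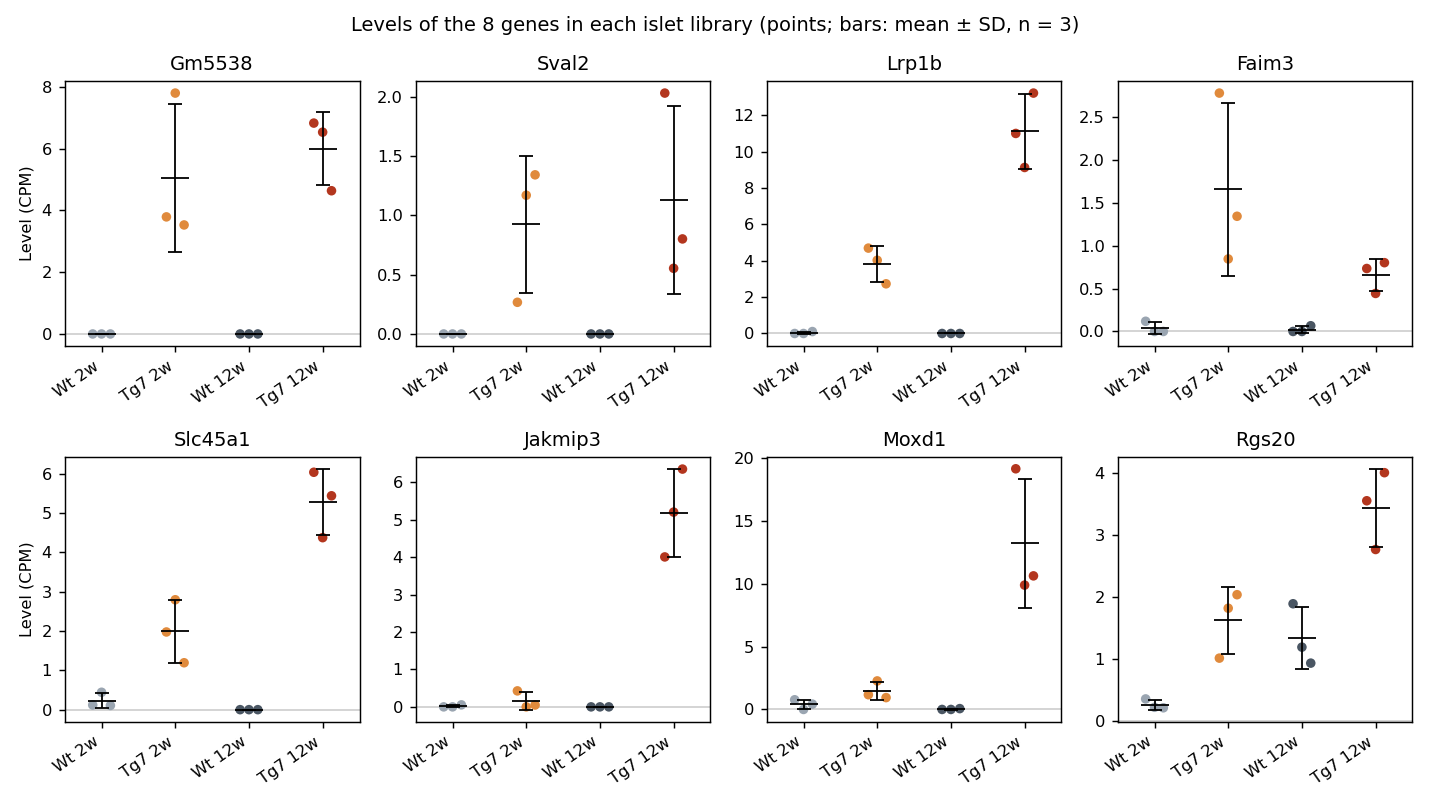
Level of each of the 8 genes in CPM (vertical axes, linear and scaled per gene) in the 3 libraries of Wt 2w, Tg7 2w, Wt 12w and Tg7 12w; points are libraries, the horizontal bar is the mean and the whiskers are the SD. Gm5538 and Sval2 sit at 0 in all Wt libraries, Jakmip3 appears at 12w, and Rgs20 is also present in Wt 12w.

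Gm5538 showed the cleanest pattern of the 8. On build mm9 it lies at chr3:59533708-59556319 on the plus strand (ENSMUSG00000090527, named Aadacl2fm2 in RefSeq). It had 0 counts in all 6 Wt libraries, 71, 120 and 71 counts in Tg7 2w, and 121, 118 and 81 counts in Tg7 12w. Its level was 5.04 ± 2.39 CPM in Tg7 2w and 6.00 ± 1.19 CPM in Tg7 12w (SD, n = 3). Set against 3 counts over the 3 Wt libraries, a fixed floor used for a count of 0, this was at least 79.2-fold higher at 2w and at least 71.1-fold higher at 12w. Every difference given as at least uses this floor. It takes the Tg7 counts as observed and is not a lower confidence limit. The counting intervals given here cover counting error only.

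Sval2 was seen only in Tg7 libraries too, but at a few reads. It lies at chr6:41802988-41814412 on the plus strand (ENSMUSG00000014104). It had 0 counts in all 6 Wt libraries, 5, 18 and 27 counts in Tg7 2w, and 36, 10 and 14 counts in Tg7 12w. Libraries of the same group differed several-fold, with 0.926 ± 0.577 CPM in Tg7 2w and 1.13 ± 0.791 CPM in Tg7 12w. The difference from Wt was at least 15.1-fold at 2w and at least 13.3-fold at 12w.

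Lrp1b, the receptor gene that spans 2058.4 kb at chr2:40450768-42509118 on the minus strand (ENSMUSG00000049252), was present in Tg7 at both ages. It had 0, 0 and 2 counts in Wt 2w and 88, 62 and 55 counts in Tg7 2w. At 12w it had 0 counts in the 3 Wt libraries and 195, 165 and 231 counts in Tg7. The Tg7 level was 3.82 ± 0.998 CPM at 2w and 11.1 ± 2.05 CPM at 12w. The ratio to Wt at 2w was 93.0 (95% counting interval 25.4 to 773), and at 12w the difference was at least 131-fold. A pseudogene inside the gene on the same strand, Gm13461, shares no exonic base with Lrp1b and did not follow it: it had 19 to 35 counts in Wt 2w, 13 to 31 in Tg7 2w, 16 to 24 in Wt 12w and 26 to 36 in Tg7 12w.

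Faim3, the IgM receptor gene at chr1:132762246-132777367 on the plus strand (ENSMUSG00000042474, Fcmr in RefSeq), was low in all Tg7 libraries and nearly missing in Wt. It had 2, 0 and 0 counts in Wt 2w and 52, 13 and 27 counts in Tg7 2w. At 12w it had 0, 0 and 1 counts in Wt and 13, 8 and 14 counts in Tg7. The level was 1.65 ± 1.002 CPM in Tg7 2w and 0.659 ± 0.190 CPM in Tg7 12w. The ratio to Wt was 41.7 (95% counting interval 11.2 to 350) at 2w and 23.3 (3.92 to 948) at 12w.

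The highest Faim3 count fell in the library that stood apart for lymphocyte markers. The 9 B lymphocyte markers summed to 65.3 CPM in Tg7 2w replicate 1, 19.9 in replicate 2 and 37.7 in replicate 3, against 10.2 to 16.4 CPM in Wt 2w. One of the 4 that were tested, Ighm, was higher in Tg7 2w (log2 fold change 1.81, SE 0.460, adjusted p = 0.02333 by edgeR). Its value without Tg7 2w replicate 1 is not given here. The 10 T and NK lymphocyte markers summed to 30.6, 7.08 and 7.30 CPM in the same 3 libraries, against 2.71 to 4.81 CPM in Wt 2w, and the 1 that was tested, Lck, was not called. In Wt 2w, Ms4a1, Pax5, Cd3d, Cd3e and Nkg7 were at 0. The fitted log2 difference of Faim3 at 2w was 5.11, with 4.52 without Tg7 2w replicate 1 and 7.73 without Wt 2w replicate 1, which held both Wt counts. At 12w, B lymphocyte markers summed to 12.3 to 23.3 CPM in Tg7 and 20.1 to 35.2 CPM in Wt, and Blk was at 0 in Wt, so Faim3 had counts in all 3 Tg7 12w libraries where the summed markers were no higher than in Wt. T and NK markers summed to 2.80 to 4.34 CPM in Tg7 12w and 2.20 to 4.03 CPM in Wt 12w, with Klrb1c at 0 in both and Cd3e at 0 in Wt. Ms4a1 had 0, 4 and 2 counts in Tg7 12w and 1, 0 and 0 counts in Wt 12w. The part of lymphocytes in the Faim3 level at 2w was not tested.

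**Figure D2:**
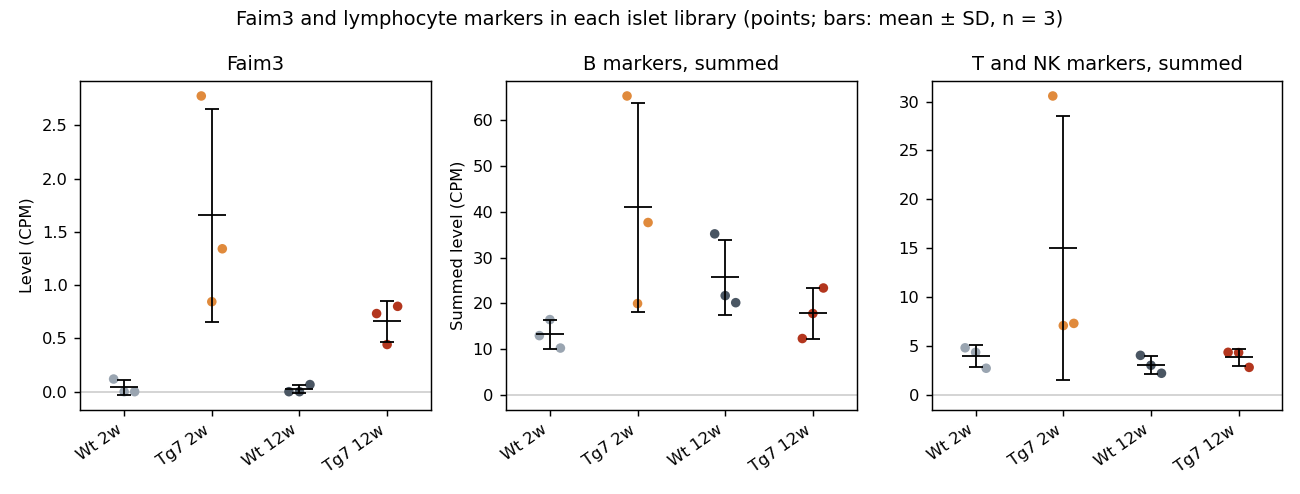
Faim3 level, summed level of 9 B lymphocyte markers and summed level of 10 T and NK lymphocyte markers (CPM, linear axes) in each library of the 4 groups; points are libraries, the horizontal bar is the mean and the whiskers are the SD. Tg7 2w replicate 1 is highest in all 3 panels, and at 12w the markers overlap between Tg7 and Wt while Faim3 does not.

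Slc45a1, the sugar transporter gene at chr4:150002681-150026283 on the minus strand (ENSMUSG00000039838), had a few reads in young Wt islets. It had 2, 6 and 2 counts in Wt 2w and 37, 43 and 24 counts in Tg7 2w. At 12w it had 0 counts in the 3 Wt libraries and 107, 79 and 95 counts in Tg7. The level went from 0.222 ± 0.190 CPM in Wt 2w to 1.99 ± 0.800 CPM in Tg7 2w, a fitted log2 difference of 3.19 (SE 0.583), or 4.04 without Wt 2w replicate 2. In Tg7 12w it was 5.28 ± 0.842 CPM, at least 62.5-fold above Wt.

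Jakmip3 was a 12w gene. It lies at chr7:146132413-146269875 on the plus strand (ENSMUSG00000056856). It had 0, 0 and 1 counts in Wt 2w, 8, 0 and 1 counts in Tg7 2w, 0 counts in the 3 Wt 12w libraries, and 71, 94 and 111 counts in Tg7 12w. At 2w the groups overlapped, and 8 of the 9 Tg7 counts came from replicate 1. Without that library the fitted log2 difference at 2w dropped from 2.62 to 0.36, and without Wt 2w replicate 3 it was 4.43 (95% counting interval of the ratio in all libraries 1.13 to 358). At 12w the Tg7 level was 5.19 ± 1.17 CPM, at least 61.3-fold above Wt.

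Moxd1, at chr10:23943323-24022596 on the plus strand (ENSMUSG00000020000), had the most counts of the 8 in Tg7 12w. It had 13, 0 and 8 counts in Wt 2w and 22, 35 and 19 counts in Tg7 2w. At 12w it had 0, 0 and 1 counts in Wt and 340, 179 and 186 counts in Tg7. Wt 2w islets thus held 0.399 ± 0.386 CPM, and Tg7 2w islets 1.46 ± 0.711 CPM, a fitted log2 difference of 1.78 (SE 0.647), or 2.56 without Wt 2w replicate 1. At 12w the level was 0.0222 ± 0.0385 CPM in Wt and 13.2 ± 5.15 CPM in Tg7, a ratio of 470 (95% counting interval 84.1 to 18590). Replicate 1 carried about as many counts as the other 2 Tg7 12w libraries together.

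Rgs20 went against the description of a gene switched on, since it was present in adult Wt islets. It lies at chr1:4899657-5060366 on the minus strand (ENSMUSG00000002459). It had 6, 3 and 4 counts in Wt 2w, 19, 28 and 41 counts in Tg7 2w, 15, 15 and 14 counts in Wt 12w, and 63, 50 and 70 counts in Tg7 12w. Its level was 0.263 ± 0.0804 CPM in Wt 2w and 1.34 ± 0.495 CPM in Wt 12w. The fitted log2 difference from Wt was 2.59 (SE 0.487) at 2w and 1.39 (SE 0.423) at 12w. Rgs20 shares 125 exonic bases with the antisense pseudogene Gm17101, which had 1 count in all libraries together.

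Every Tg7 library lay above every Wt library for 7 of the 8 genes at 2w, Jakmip3 being the exception, and for all 8 at 12w. Over all tested genes this held for 17.8% at 2w and 20.7% at 12w. Since the genes were selected on this contrast, nothing is read from that count. A numeric version of the rule, a Wt mean under 0.5 CPM, a Tg7 mean of at least 1 CPM and no overlap, was met by 130 genes (0.814%) at 2w and by 265 genes (1.66%) at 12w. The mirror rule, near absent in Tg7 and present in Wt, was met by 29 genes at 2w and 38 at 12w. Of the 8 genes, 6 met it at 2w, without Sval2 and Jakmip3, and 6 met it at 12w, without Faim3 and Rgs20. Gm5538, Lrp1b, Slc45a1 and Moxd1 were among the 35 genes that met it at both ages. Just inside the limit of 1 CPM lay Hsf2bp (1.01 CPM in Tg7 and 0.287 in Wt) and Gm7420 (1.02 and 0.308) at 2w, and Xist (1.002 and 0.237) and Apobec4 (1.01 and 0.261) at 12w. Just outside lay Elfn1 (0.996 and 0.471) and Gm766 (0.991 and 0.370) at 2w, and Gm10286 (0.997 and 0.385) and Ccdc125 (0.996 and 0.230) at 12w.

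Even in Tg7 islets these were low transcripts. Levels between genes are compared as CPM per kilobase of exon. In Tg7 12w, Gm5538 stood at 4.60 ± 0.912 and Moxd1 at 4.14 ± 1.61, within each other's spread, beside a median of 5.23 over all tested genes. Slc45a1 at 1.20 ± 0.192, Jakmip3 at 1.01 ± 0.230, Sval2 at 0.934 ± 0.655 and Rgs20 at 0.812 ± 0.148 followed, each within the spread of its neighbour in this order. Lrp1b at 0.481 ± 0.0885 and Faim3 at 0.380 ± 0.110 came last and did not differ beyond their spread. In Tg7 2w the order was Gm5538 (3.87 ± 1.84), Faim3 (0.953 ± 0.578), Sval2 (0.766 ± 0.478), Moxd1 (0.458 ± 0.222), Slc45a1 (0.452 ± 0.182), Rgs20 (0.383 ± 0.127), Lrp1b (0.165 ± 0.0432) and Jakmip3 (0.0311 ± 0.0457). All 8 lay under the median per kilobase of the tested genes in all 4 groups. Gm5538 came nearest, above 46.5% of tested genes in Tg7 12w.

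The step from 2w to 12w within Tg7 islets was fitted for all 8 genes, and its test is read for 7 of them. The choice of genes used the Tg7 libraries of both ages, though not the difference between them. Faim3 met the numeric rule at 2w alone and Sval2 at 12w alone. The choice thus favoured a fall for Faim3 and a rise for Sval2, and their tests are read with that limit. The test of Jakmip3 is not read. This gene met the rule and the filter on low counts through Tg7 12w alone, which fixed its direction. Its fitted log2 difference, 4.92 (SE 0.797), is a description. Of the other 7 genes Moxd1 and Lrp1b rose between 2w and 12w, and none fell. Over all tested genes, 7.02% rose and 6.01% fell. Moxd1 rose by 3.19 on the log2 scale (SE 0.555, adjusted p = 0.001955 by edgeR's quasi-likelihood test) and Lrp1b by 1.54 (SE 0.366, adjusted p = 0.01602). For both genes every Tg7 12w library lay above every Tg7 2w library. The Moxd1 call held under all 19 alternatives. Moxd1 met the numeric rule at both ages. Its Wt counts at 2w were still more than the description of the genes allows, so its choice can have leaned on 12w. That would favour a rise, and no alternative removes this limit. The Jakmip3 value was 7.18 without Tg7 2w replicate 1, which held most of its young counts. The Lrp1b call was lost without Tg7 2w replicate 3 (adjusted p = 0.05097) and without Tg7 12w replicate 1 (adjusted p = 0.06353) or 3 (adjusted p = 0.08671).

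The other 5 genes were not called between the ages. Slc45a1 was 1.42 higher on the log2 scale at 12w (SE 0.459, adjusted p = 0.06393) and Rgs20 1.08 higher (SE 0.404, adjusted p = 0.0974), each with no overlap between the ages. Slc45a1 passed the threshold by DESeq2 (adjusted p = 0.02375) and in a fit of the 6 Tg7 libraries alone with edgeR (adjusted p = 0.02302). Faim3 was the one gene with a lower level at 12w, with a log2 difference of -1.32 (SE 0.659, adjusted p = 0.2143), and -0.74 without Tg7 2w replicate 1. Its libraries of the 2 ages did not overlap. Gm5538 differed by 0.26 (SE 0.393, adjusted p = 0.7164). Sval2 differed by 0.28 (SE 0.749, adjusted p = 0.8422), a value that turned negative without Tg7 2w replicate 1 (-0.16) or Tg7 12w replicate 1 (-0.45).

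**Figure D3:**
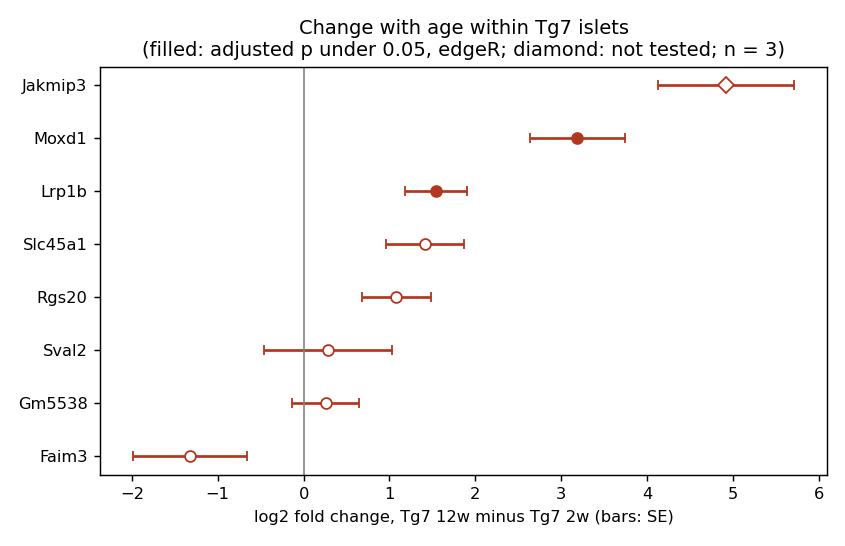
Log2 fold change between Tg7 12w and Tg7 2w (horizontal axis) for each of the 8 genes (rows), with the standard error as whiskers. Filled circles have an adjusted p under 0.05. The diamond, labelled not tested, marks Jakmip3, whose test is not read. Moxd1 and Lrp1b are filled, at 3.19 and 1.54, Jakmip3 lies at 4.92, and Faim3 lies left of 0 at -1.32. The choice of Moxd1 can have favoured its rise.

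Marker genes of other cell types moved in the same libraries. Over all tested genes, 6.07% were higher and 4.55% lower in Tg7 at 2w, and 12.5% higher and 11.2% lower at 12w. Between 2w and 12w in Tg7, 7.02% rose and 6.01% fell. All 10 stellate and fibroblast markers were higher in Tg7 at 12w and 7 of the 10 at 2w. Their summed level was 241 to 350 CPM in Wt 2w, 442 to 595 CPM in Tg7 2w, 42.4 to 49.7 CPM in Wt 12w and 286 to 323 CPM in Tg7 12w, and none was at 0. Between 2w and 12w in Tg7, 5 of these 10 markers were lower and 1, Dcn, was higher. Among 10 neuron markers 6 were higher in Tg7 at 12w, with a summed level of 268 to 367 CPM in Tg7 2w, 453 to 500 CPM in Tg7 12w, 309 to 370 CPM in Wt 12w and 349 to 380 CPM in Wt 2w. Tubb3 and Th were lower at 2w. Of 8 Schwann cell markers 3 were higher and 1 lower at 12w, and their summed level was 278 to 286 CPM in Tg7 12w and 235 to 273 CPM in Wt 12w. All 7 endothelial markers were higher at 12w, with 745 to 800 CPM in Tg7 and 349 to 474 CPM in Wt. Acinar markers summed to 23.3 to 31.5 CPM in Tg7 2w and 9.73 to 12.3 CPM in Wt 2w, with 1 of 8 tested higher and Prss1, Amy2b and Cpb1 at 0 in Wt 2w. Of 7 alpha, 4 delta, 3 PP, 5 ductal and 7 macrophage markers tested, 1, 0, 2, 0 and 1 were higher at 2w, and 1, 0, 1, 2 and 0 were higher at 12w, with 1 macrophage marker lower at 12w. The part of these cells in the levels of Lrp1b, Slc45a1, Jakmip3 and Moxd1 was not tested.

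The families of the 8 genes were read next, because these relatives were listed by family and not by how they moved. Of 61 family genes with a row of counts, 43 were tested, and 7 rose and 2 fell in Tg7 at 2w, while 10 rose and 6 fell at 12w. Over all tested genes, 6.07% rose and 4.55% fell at 2w, and 12.5% rose and 11.2% fell at 12w. The median log2 difference of the 43 was 0.06 at 2w and 0.08 at 12w, beside 0.03 and -0.01 over all tested genes. Of the 32 calls made on single family and neighbour genes, 14 held under all 19 alternatives. These were Jakmip2 at both ages, Pigr and Med12l at 2w, and Jakmip1, Lrp1, Lrp3, Rgs2, Rgs3, Rgs9, Rgs12, Rgs16, Pam and Ctgf at 12w, and each of the other calls was lost under at least 1.

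Jakmip2, another coiled-coil protein gene of the JAKMIP family, was the one relative with a mean under 0.5 CPM in Wt and of at least 1 CPM in Tg7 at either age. It had 5, 4 and 2 counts in Wt 2w, 157, 118 and 156 counts in Tg7 2w, 1, 3 and 4 counts in Wt 12w, and 361, 286 and 324 counts in Tg7 12w. Its level rose from 0.233 to 7.93 CPM at 2w, a log2 difference of 5.09 (SE 0.324, adjusted p = 1.639e-06, edgeR), and from 0.210 to 18.2 CPM at 12w, a log2 difference of 6.30 (SE 0.339, adjusted p = 6.452e-08, edgeR). Within Tg7 it also rose from 2w to 12w, by 1.20 (SE 0.226, adjusted p = 0.003136, edgeR). Unlike Jakmip3 it was thus present in Tg7 islets at 2w already, in all 3 libraries.

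Jakmip1, the closest relative of Jakmip3 by transcript sequence (66.2% identity over 1547 bases), was expressed in every group and moved both ways. It had 839, 684 and 862 counts in Wt 2w, 606, 541 and 532 counts in Tg7 2w, 183, 349 and 444 counts in Wt 12w, and 659, 786 and 749 counts in Tg7 12w. It fell by 0.64 on the log2 scale at 2w (SE 0.139, adjusted p = 0.01026, edgeR) and rose by 0.61 at 12w (SE 0.141, adjusted p = 0.006508, edgeR). The 2w call was lost when libraries were scaled by size alone.

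**Figure D4:**
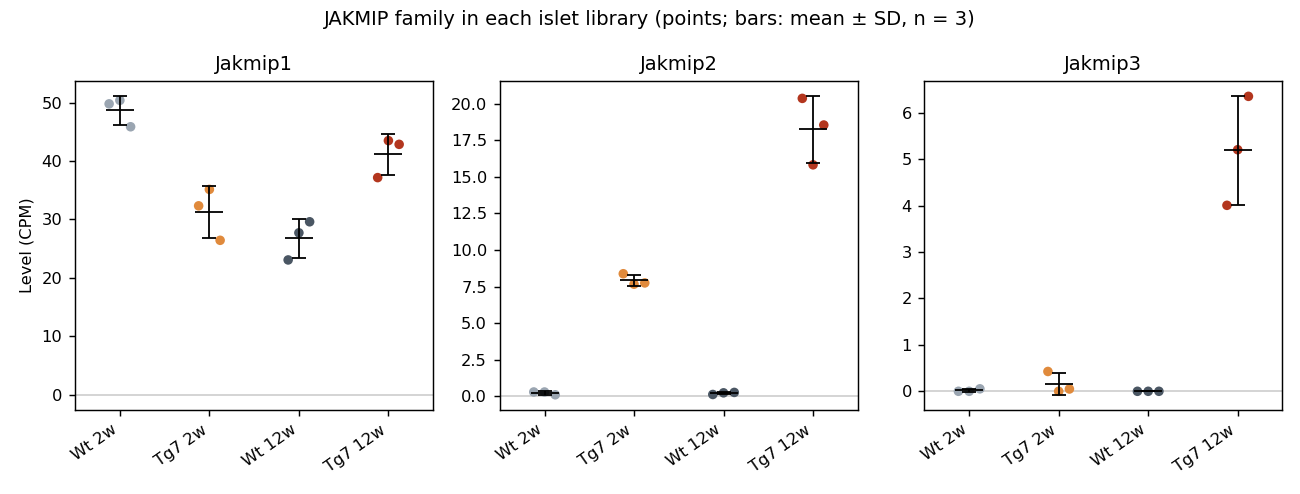
Levels of Jakmip1, Jakmip2 and Jakmip3 in CPM (vertical axes, linear and scaled per gene) in the 3 libraries of each group; points are libraries, the horizontal bar is the mean and the whiskers are the SD. Jakmip2 is near 0 in Wt and reaches 18.2 CPM in Tg7 12w, Jakmip3 appears at 12w, and Jakmip1 is lower in Tg7 at 2w and higher at 12w.

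Other families moved in part. In the LDL receptor family Lrp1, the endocytic receptor closest to Lrp1b by sequence (67.3% identity over 5386 bases), rose by 0.73 on the log2 scale at 12w (SE 0.157, adjusted p = 0.004148, edgeR). Its counts there were 200, 395 and 647 in Wt and 930, 981 and 1053 in Tg7. Lrp3 (0.54) and Lrpap1, the chaperone of these receptors (0.51), also rose at 12w, and Vldlr (-0.78), Lrp5 (-0.64) and Sorl1 (-0.86) fell. The Vldlr call was lost under 14 of the 19 alternatives. At 2w Lrp2, or megalin, rose by 1.61 and Lrpap1 by 0.53, and Lrp8 fell by 0.65. Without Tg7 2w replicate 3 Lrp2 stood at 0.73 and Lrpap1 at 0.30, and neither was called. The other 7 of the 15 LDL receptor family genes were called at neither age.

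Of the 15 other RGS genes tested none was called at 2w and 6 were called at 12w. Rgs16 rose by 1.73 (SE 0.371, adjusted p = 0.004237, edgeR), Rgs9 by 1.26, Rgs12 by 1.09 and Rgs4 by 0.53, all on the log2 scale. Rgs3 fell by 2.11 (SE 0.267, adjusted p = 8.678e-05, edgeR) and Rgs2 by 1.22. Rgs17, the closest relative of Rgs20 by sequence (72.6% identity over 519 bases), held 49.6 and 48.8 CPM in Wt and Tg7 at 2w and 55.4 and 51.7 CPM at 12w and was called at neither age.

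Among Moxd1's relatives Pam, which amidates peptide hormones, rose by 0.81 at 12w (SE 0.164, adjusted p = 0.002912, edgeR), from 877 to 1537 CPM. Dbh had 3 counts and Moxd2 had 0 counts over all 12 libraries. Neither of the 2 tested SLC45 genes, Slc45a3 and Slc45a4, was called at either age. Sval1, the closest relative of Sval2 by sequence (78.7% identity over 502 bases), and with it Sval3 and Pip, had 0 counts in every library. Aadacl2, the closest relative of Gm5538 (68.5% identity over 1213 bases), had 0 counts too. Aadac itself rose by 1.87 on the log2 scale at 2w (SE 0.555, adjusted p = 0.04608, edgeR), a call lost without Tg7 2w replicate 3 (0.93), which had 774 counts against 163 and 188 in the other libraries of its group. Nceh1, another enzyme of this family, fell by 0.54 at 12w, a call lost under 14 of the 19 alternatives. Among Fc receptors Pigr, Fcgr2b and Fcgrt rose at 2w, by 2.09, 1.16 and 1.01, the latter 2 not called without Tg7 2w replicate 3 (1.05 and 0.59), and none of the 6 tested was called at 12w. No other protein-coding transcript in the annotation matched any of the 8 genes at 95% identity or more over at least 100 bases. Pseudogenes and non-coding genes were not searched.

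The 2 protein-coding genes on each side of the 8 genes were read to see whether whole stretches of chromosome moved. Of these 32 neighbours 20 were tested, and 1 rose and 1 fell in Tg7 at 2w, while 2 rose and 4 fell at 12w, beside 6.07% and 4.55% of all tested genes at 2w and 12.5% and 11.2% at 12w. The median log2 difference was -0.09 at 2w and -0.24 at 12w, beside 0.03 and -0.01 over all tested genes. Pigr, the receptor that carries IgA and IgM across epithelia, ends 13.4 kb before Faim3. It had 108, 116 and 116 counts in Wt 2w and 426, 457 and 750 counts in Tg7 2w, a log2 difference of 2.09 (SE 0.304, adjusted p = 0.000784, edgeR). At 12w it had 227, 341 and 248 counts in Wt and 283, 565 and 622 counts in Tg7 and was not called (0.20, SE 0.287). Ctgf, a matricellular protein gene 292.7 kb after Moxd1, had 59, 109 and 140 counts in Wt 12w and 554, 613 and 641 counts in Tg7 12w. It rose there by 1.99 (SE 0.203, adjusted p = 1.454e-05, edgeR) and was not called at 2w (0.15, SE 0.182).

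Igsf10, before Gm5538, rose by 1.48 at 12w. Med12l, on the same side of Gm5538, fell by 0.82 at 2w and by 0.60 at 12w. Ppp6c near Lrp1b fell by 0.68, Ppp2r2d near Jakmip3 by 0.48 and Tcea1 near Rgs20 by 0.50, each at 12w. The Tcea1 call was lost under 12 of the 19 alternatives. None of the tested neighbours of Slc45a1 was called at either age. The 4 neighbours of Sval2 had no counts in any library.

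**Figure D5:**
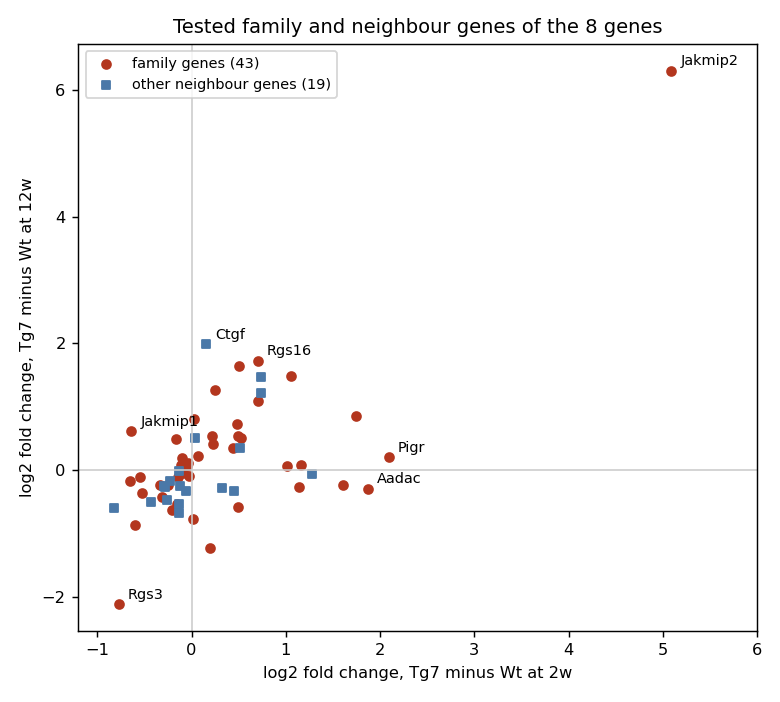
Log2 fold change between Tg7 and Wt at 2w (horizontal axis) and at 12w (vertical axis) for the 43 tested family genes (circles) and 19 further tested neighbours (squares) of the 8 genes. Jakmip2 stands alone at 5.09 and 6.30, and the other points lie between -2.11 and 2.09 on both axes.

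The genes whose pattern over the 12 libraries was most like each of the 8 were found by Pearson's r of log2 CPM, given as a description because the libraries share 4 groups and a common scaling. Palm, a membrane-bound phosphoprotein of neurons, was first for Gm5538 (r = 0.987, n = 12 libraries) and for Lrp1b (0.990). Its mean level was 14.5, 42.8, 14.7 and 56.9 CPM in Wt 2w, Tg7 2w, Wt 12w and Tg7 12w. Jakmip2 was second for Gm5538 (0.982), and Rit2, a small GTPase of neurons, second for Lrp1b (0.989). Sval2 was followed by Flot1 (0.953) and Gm5538 (0.945), and Faim3 by Icosl, a costimulatory ligand (0.964), and Stom (0.958). Slc45a1 was followed by Srcin1 (0.988) and Lin7a, a scaffold protein of synapses (0.987). Jakmip3 was followed by Slc25a20 (0.978) and Pcp4l1 (0.972), and Moxd1 by Bai1 (0.963) and the calcium pump Atp2b2 (0.955). Pgrmc1 was second for Rgs20 (0.981). Among the 8 genes themselves r ranged from 0.493, between Faim3 and Jakmip3, to 0.978, between Gm5538 and Lrp1b.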

How the data were processed

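Total RNA of pancreatic islets gave 12 paired-end libraries, 3 for each genotype and age, sequenced on a HiSeq2500. The deposited table holds raw counts per Ensembl gene. The authors trimmed reads with Trimmomatic, mapped them to mm9 (NCBIM37) with TopHat2 2.0.11 and counted them with featureCounts. For featureCounts, version and strand setting: not given in the sources used here, so antisense reads cannot be told apart. Whether libraries of one group came from separate litters is not stated, and p-values measure the spread between these pools.

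The 8 genes and all gene lists were chosen with earlier results of these data known. Counts were fitted with edgeR 4.0.16 (R 4.3.3) as in the quasi-likelihood test, 1 model over 12 libraries with 4 groups, TMM scaling, genes kept from a count of 10 in enough libraries (filterByExpr) and a total of 15, and Benjamini-Hochberg adjustment over 15961 genes with a threshold of 0.05. The common biological coefficient of variation was 0.212. The standard error of a log2 fold change is its size over the square root of its F statistic. The method was checked on simulated counts. CPM use TMM-scaled library sizes, with a prior count of 2 for log2 CPM. Ratios with 1 to 3 counts in a group have exact binomial intervals. Positions come from the mm9 GENCODE annotation, and 37205 gene IDs had a symbol. All 8 genes and all family genes called at either age or closest by transcript sequence are named. Neighbours that passed, the 2 most similar genes of each and those nearest the limit are named too. Closest by sequence means the longest blastn alignment to a coding transcript of another gene, with identity used only for ties. Family, neighbour and marker lists were tested for Tg7 minus Wt. Alternatives were DESeq2 1.42.0, other scalings and filters, a block on replicate number, the compared libraries alone and each library left out. Replicate numbers did not pair the libraries: deviations from group means correlated between -0.167 and 0.183 for the same numbers. Proteins, and promoters of Lrp1b, Slc45a1 and Rgs20, were not analysed here, and a most similar gene of Rgs20 is not reported here.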

Additional observations from a re-analysis of the deposited data

Results flagged for a closer look

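For 4 of the 62 tested family and neighbour genes, the difference between Tg7 and Wt itself differed between 2w and 12w, by the interaction term of the edgeR fit. Over all tested genes this held for 188. This test is not read for the 8 genes, because they were chosen on the contrast.

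Ctgf, a neighbour of Moxd1, had a Tg7 difference that was 1.84 higher on the log2 scale at 12w than at 2w (SE 0.271, adjusted p = 0.004332). Jakmip1 moved from lower to higher in Tg7, a change of 1.25 (SE 0.199, adjusted p = 0.007415). The Tg7 difference of Rgs2 changed by -1.42 (SE 0.278, adjusted p = 0.02465) and that of Pigr, the neighbour of Faim3, by -1.89 (SE 0.415, adjusted p = 0.04366). The levels in Wt moved between the ages for all 4 genes. Mean CPM of Ctgf at 2w and 12w were 75.1 and 8.47 in Wt and 83.4 and 33.9 in Tg7. Pigr had 7.04 and 24.1 in Wt and 29.9 and 27.6 in Tg7. Rgs2 had 29.7 and 201 in Wt and 34.2 and 86.4 in Tg7, and Jakmip1 48.7 and 26.8 in Wt and 31.3 and 41.2 in Tg7.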

How the results depend on the processing

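The rise of Moxd1 between 2w and 12w in Tg7 and the Jakmip2 calls at both ages held under every alternative. The choice of Moxd1 can have favoured its rise, a limit that no alternative removes. Without TMM the median of all tested genes shifted by 0.166 (log2) at 2w, 0.444 at 12w and -0.118 between the ages in Tg7, and log2 values are read against that shift. Counting Jakmip3, whose direction the choice had fixed, 3 of the 8 genes passed the threshold between ages, 4 with DESeq2, a filter of 50 counts in 3 libraries, the replicate block or the 6 Tg7 libraries alone, and 2 to 4 with a library left out. Over all tested genes 7.02% rose and 6.01% fell between the ages in the main fit, and nothing is read from the count of the 8. The 8 genes' count in the numeric rule was 2 to 7 at 2w and 5 or 6 at 12w.

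Genes called at 2w numbered 1695, 2630 with the replicate block, and 754 to 3071 with a library left out, lowest without Wt 2w replicate 3 and highest without Wt 12w replicate 4; counts also fell by over 1.5 times without Wt 2w replicates 1 or 2 or Tg7 2w replicate 3. At 12w they numbered 3772, and 2417 to 4036 with a library left out, lowest without Tg7 12w replicates 2 or 3. Between the ages in Tg7 they numbered 2079, 3441 in the 6 libraries alone, and 1115 to 3329 with a library left out, lower without each Tg7 12w library and highest without Wt 12w replicate 4. Family genes called at 2w were 9, 16 with the replicate block, 15 with DESeq2, and 3 to 18 with a library left out, lowest without either library numbered 3 at 2w, 4 without Wt 2w replicates 1 or 2 or Tg7 12w replicates 1 or 2, and highest without Wt 12w replicate 4. Neighbours called at 2w were 2, 5 with the block, 4 in the 6 libraries alone, and 2 to 6 with a library left out, highest without Wt 12w replicate 4. At 12w they were 6, 3 in the 6 libraries alone, and 3 to 7 with a library left out, lowest without Tg7 12w replicates 1 or 3.

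The numeric rule gave 130 genes at 2w, 37 with a Wt mean under 0.25 CPM and 31 with a Tg7 mean of at least 2 CPM, and 147 to 185 with a library left out. At 12w it gave 265, 120, 99 and, with library size alone, 431, and 280 to 309 with a library left out. Fewer genes under the stricter limits follow from their construction, and the cause of the other changes was not tested. Directions turned for Sval2 between the ages (-0.45 to 0.68 with a library left out), for Pigr at 12w (-0.19 with the replicate block, -0.019 to 0.496 with a library left out) and for Ctgf at 2w (-0.11 to 0.30 with a library left out), none of them called. Among calls of single family and neighbour genes, 18 of 32 were lost under at least 1 alternative. Depth limits Sval2 and Faim3, at 5 to 52 counts per Tg7 library, and Jakmip3 at 2w, with 9 counts over the Tg7 libraries.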
